A study of Mus musculus with 7 samples.

Results

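The clustered histone genes of EML cells were taken as every symbol of the expression table that begins with Hist1h, Hist2h, Hist3h or Hist4h and is listed once. The pattern held 62 symbols on 65 rows. After the 3 symbols listed more than once were set aside, 59 genes remained of the 20142 symbols listed once. By protein, 6 encoded the linker histone H1, 13 H2A, 18 H2B, 11 H3 and 11 H4. EML (erythroid, myeloid, lymphoid) is a mouse multipotent blood progenitor line, here of C57BL/6 strain, that holds cells with and without CD34, a surface protein of blood progenitors. The 7 RNA libraries were labelled as 4 of CD34-negative and 3 of CD34-positive cells. All groups were sorted live cells without a stated treatment, and the labels describe total RNA without saying how RNA species were selected. The labels give a genotype field with CD43 for the negative cells where the titles give CD34, and the titles were followed. The labels do not say whether the replicates are separate cultures; each p-value therefore reflects only the variation among these libraries, part of which may be technical.

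Each library carries a number in its description. Number 3 is CD34-negative replicate 1 and CD34-positive replicate 1, of which the CD34-positive one is written 3a. Number 2 is replicate 2 of each. Number 4 is CD34-positive replicate 3 with CD34-negative replicates 3 and 4, of which replicate 4 is written 4a. What the letter a stands for is not stated. The unit is FPKM (fragments scaled to transcript length and to the mapped total of the library). No read count per library is given, so the depth is unknown. The number-4 libraries stood apart: ribosomal protein genes made up 2.24 to 4.13% of their summed FPKM, against 27.7 to 37.1% in the other 4. The summed FPKM of 112 short RNAs that lack a poly(A) tail was 3095 to 21203 in number 4, against 289 to 971 elsewhere. Only 13 to 17 of the 112 were above 0 in a number-4 library and 11 to 17 in the others. Snora31 was 10284 FPKM in CD34-positive replicate 3 and 0 in CD34-negative replicates 3 and 4. Directions were mixed. Rmrp was 147 to 286 FPKM in number 4 and at most 61.1 elsewhere, while Snora64 was 0 in number 4 and 40.0 to 115 elsewhere. In CD34-negative replicate 3 a single gene, Mir703, held 149618 of the 432027 summed FPKM. What the numbers stand for is not stated, and whatever differed between them cannot be told apart from the number itself. All 7 EML progenitor markers checked, among them Kit and Cd34, were present, summing to 492 to 1155 FPKM. Of 6 testis germ cell markers, 5 were at 0 in all libraries and the sum did not pass 0.323 FPKM, and 4 lymphoid markers summed to at most 0.393 FPKM. Cd34 itself was 147, 256 and 153 FPKM in the CD34-positive libraries and 91.8, 19.3, 2.67 and 6.02 FPKM in the CD34-negative libraries of numbers 3, 2, 4 and 4a.

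Replication-dependent histone genes lie in clusters, and each makes a short message without introns that is needed in bulk while DNA is copied. Most of these messages end not in a poly(A) tail but just after a short RNA hairpin, the stem-loop, which the protein SLBP binds. Some of the genes are also known to give longer, polyadenylated messages, so a library that selects poly(A) RNA and one that does not can read different transcripts of the same gene. The core histones H2A, H2B, H3 and H4 form the protein spool of DNA, and H1 sits on the linker DNA between spools. H2A and H2B genes are often arranged head to head, with a shared promoter between them.

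The stem-loop was sought in a single GENCODE M21 transcript of each of the 59 genes, the first by name, protein-coding where there was one. The letters sought were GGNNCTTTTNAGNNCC, where N is any base, on the transcript strand. The stem-loop was present in 36. Counting any transcript of a gene, it was present in 0.161% of all 55341 annotated genes, and in 0.0814% without the clustered histone genes. The annotated transcript ended within 100 bases of it in 15 of the 36 and ran further in 21. The letters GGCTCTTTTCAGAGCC stood in 20 of the 36, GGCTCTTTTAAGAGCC in 6 and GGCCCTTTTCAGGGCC in 5, and all 5 of these were H4 genes. Many of the other 23 annotated transcripts hold little beyond the coding part, and the absence of the letters there says only that they are not in the annotated transcript. The stem-loops below belong to genes described in what follows, with 5 bases on each side, 5′ to 3′, and the 16 matched bases in capitals.
Hist1h2ag: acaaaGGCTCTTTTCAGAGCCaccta
Hist1h2bj: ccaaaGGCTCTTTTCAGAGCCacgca
Hist1h3b: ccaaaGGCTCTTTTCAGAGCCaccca
Hist1h4i: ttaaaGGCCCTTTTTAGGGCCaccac
Hist1h1c: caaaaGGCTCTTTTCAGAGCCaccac
Hist2h3c1: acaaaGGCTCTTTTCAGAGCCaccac
After the hairpin, the annotated transcript went on for 23 bases in Hist1h2ag and Hist1h2bj and 51 in Hist1h3b, the short form, but for 330 in Hist1h4i, 840 in Hist1h1c and 1162 in Hist2h3c1. The searched transcripts of Hist1h2bc and Hist2h2be, genes reported elsewhere to make polyadenylated messages, did not hold the letters.

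Of the 59 genes, 57 were above 0 in at least 1 library and 40 reached 1 FPKM in all 7. The testis gene Hist1h2aa and Hist3h2ba were listed at 0 throughout, and the testis linker histone Hist1h1t did not pass 0.132 FPKM. A filter of 1 FPKM in at least 3 libraries passed 53 genes. Below it were Hist1h1t, Hist1h2ba, Hist2h2ab and Hist3h2bb-ps as well as the 2 genes at 0, and Hist1h2br and Hist2h3c1 passed it through the number-4 libraries alone. By mean log2(FPKM + 1) the highest were 2 H2A genes, Hist1h2ag (6.60 to 93.1 FPKM, median 64.3) and Hist1h2af (6.69 to 72.4, median 41.1). Next came the linker histone Hist1h1c (17.6 to 62.5, median 29.9), the H2B gene Hist1h2bc (20.4 to 45.01, median 26.8) and the H4 gene Hist1h4i (10.3 to 43.7, median 35.9). Their ranges overlap, so this order is not one of separate levels. The steadiest of the abundant genes was Hist2h2be, between 8.27 and 10.7 FPKM in all 7 libraries.

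Summed over the 59 genes, FPKM was 311 in CD34-negative and 424 in CD34-positive cells of number 3, and 597 and 821 in those of number 2. In number 4 the sums were 558 and 711 in the CD34-negative and 596 in the CD34-positive library. The sum was thus higher in the CD34-positive library of numbers 2 and 3, and in number 4 it lay between the 2 CD34-negative ones. As a share of all summed FPKM the genes held 0.207% ± 0.0689 (SD, n = 3) in number 4 and 0.0818% ± 0.0261 (SD, n = 4) in numbers 2 and 3. With ribosomal protein genes taken out of the total the shares were 0.214% ± 0.0731 and 0.121% ± 0.0420, and these ranges overlap. The 3 symbols listed more than once change this: with 1 row of each added, the share of all summed FPKM was 0.321 to 0.658% in number 4 and 0.0530 to 0.116% in the rest. Without ribosomal protein genes it was then 0.328 to 0.686% against 0.0750 to 0.175%, so neither overlapped.

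**Figure D1:**
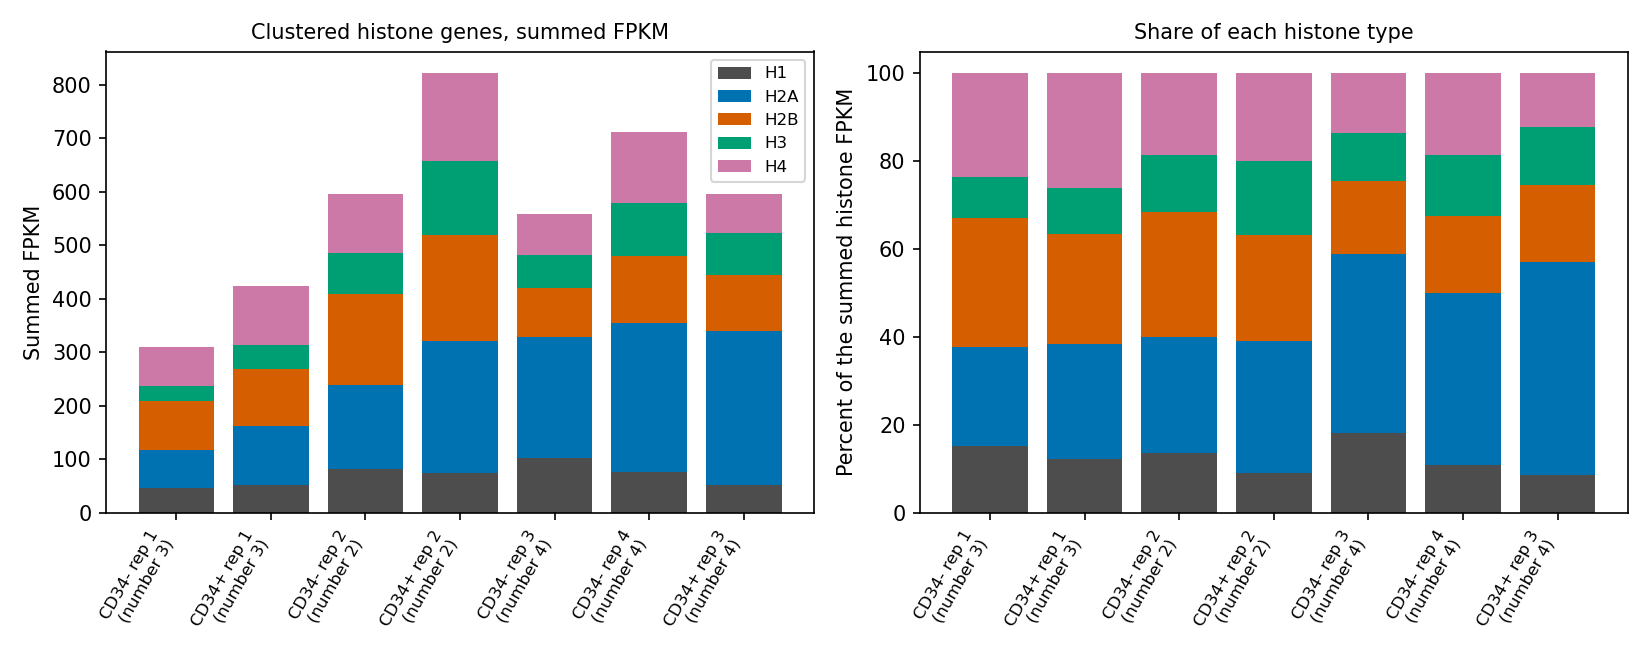
Left, summed FPKM of the 59 clustered histone genes in each library, stacked by histone type. Right, each type as a percent of that sum. The number-3 libraries have the lowest sums (311 and 424), and H2A fills 39.1 to 48.5% of the sum in the 3 number-4 libraries against 22.6 to 30.2% in the other 4.

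The makeup of the sum differed between the numbers. H2A genes held 42.8% ± 5.005 (SD, n = 3) of the histone sum in number 4 and 26.3% ± 3.10 (SD, n = 4) in numbers 2 and 3, without overlap. H2B genes held 17.2% ± 0.586 and 26.8% ± 2.49, in the opposite direction and also without overlap. H4 genes held 14.7% ± 3.41 and 22.0% ± 3.45, with 1 number-4 library inside the range of the others. The H3 share (12.8% ± 1.52 and 12.3% ± 3.31) and the H1 share (12.5% ± 5.02 and 12.5% ± 2.67) differed by less than their spread. With the 3 repeated symbols added, H2A genes held 74.7 to 79.6% of the sum in number 4 and 22.9 to 30.2% elsewhere, and most of the added FPKM came from Hist1h2ap. These are shares of a sum and were not tested.

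CD34-positive and CD34-negative cells were compared first over all 7 libraries, with limma on log2(FPKM + 1), a scale that understates the change of low genes. No clustered histone gene differed at an adjusted p under 0.05, and none of the 9259 tested genes did (0% in either direction), so this fit resolved no difference for any gene. At an unadjusted p under 0.05, 0 of the 53 tested histone genes were higher, beside 3.38% of all tested genes, and 1 was lower, beside 2.27%. That gene was Hist1h1c, which encodes a linker histone. It stood at 21.3, 17.6 and 20.7 FPKM in the CD34-positive libraries of numbers 3, 2 and 4, and at 30.8, 29.9, 62.5 and 37.2 FPKM in the CD34-negative ones of numbers 3, 2, 4 and 4a. The groups did not overlap, which held for 3.01% of all tested genes in that direction. No histone gene was separated in the other direction, beside 2.67% of all tested genes. The log2 difference of Hist1h1c was -0.91 (SE 0.341, limma adjusted p = 0.735), and with the number as a block it was -0.84 (SE 0.226, limma adjusted p = 0.109).

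Libraries resembled each other more by number than by CD34 group. Across the 59 genes, log2(FPKM + 1) of libraries with the same number correlated at a Pearson r of 0.91 to 0.95, and of libraries with different numbers at 0.50 to 0.79. The genes of a library share its depth and RNA, so these are descriptions only. With the number as a block, again 0 genes were called. At an unadjusted p under 0.05, 8 histone genes (15.1%) were then higher, beside 12.8% of all tested genes, and 2 (3.77%) were lower, beside 9.14%; these shares lie near or below the background. The 2 lower ones were Hist1h1c and Hist1h2bc, an H2B gene at 28.4, 24.8 and 20.4 FPKM in the CD34-positive libraries of numbers 3, 2 and 4 and at 45.01, 33.9, 26.8 and 26.4 FPKM in the CD34-negative ones of numbers 3, 2, 4 and 4a. In each number the Hist1h2bc value of the CD34-negative library was the higher one (blocked log2 difference -0.47, SE 0.129, limma adjusted p = 0.113). A negative difference in every pair held for 7.55% of the histone genes and 18.9% of all tested genes.

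Within equal numbers there is 1 library a side, so the differences are descriptions without a test. In number 2, 42 of the 53 genes were higher in the CD34-positive library and 10 lower, with a median log2 difference of 0.47, while 58.9% of all tested genes were higher with a median of 0.13. In number 3, 41 were higher and 10 lower, with a median of 0.56, beside 50.8% and a median of 0.00 over all tested genes. Both differences were positive in 36 of the 53 (67.9%), beside 40.3% of all tested genes. The CD34-positive library of number 4 is shared by the remaining 2 pairs. Against CD34-negative replicate 3, 35 genes were higher and 18 lower (median 0.15). Against replicate 4, the library written 4a, 8 were higher and 45 lower (median -0.33). For all tested genes these 2 pairs had 49.6% and 48.5% higher.

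The 2 pairs of number 4 share their CD34-positive library. For every gene the gap between them is therefore, by construction, the difference between the 2 CD34-negative libraries of number 4. Replicate 4 was above replicate 3 for 47 of the 53 genes (88.7%, median 0.52), beside 51.2% of all tested genes. Genes of DNA replication and S phase, such as the replication clamp Pcna and the helicase subunits Mcm2 to Mcm7, differed alike: 23 of 25 were higher in replicate 4 than in replicate 3, with a median of 0.35. The same 25 genes had medians between the CD34-positive and the CD34-negative library of 0.05 in number 2, 0.04 in number 3, 0.21 in number 4 and -0.14 in number 4a. These 2 CD34-negative libraries also differed in cell type markers. The erythroid markers Gata1, Klf1, Epor and Car1 were all higher in replicate 4, and the mast markers Cpa3, Ms4a2, Cma1 and Hdc all lower. Car1 was 17.7 FPKM in replicate 3 and 302 FPKM in replicate 4, and Hdc was 578 and 42.8 FPKM. The share of cells in S phase was not measured. Its part and that of the cell makeup in the histone differences were not tested. In bulk libraries, fewer cells making a message and less message per cell cannot be told apart.

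**Figure D2:**
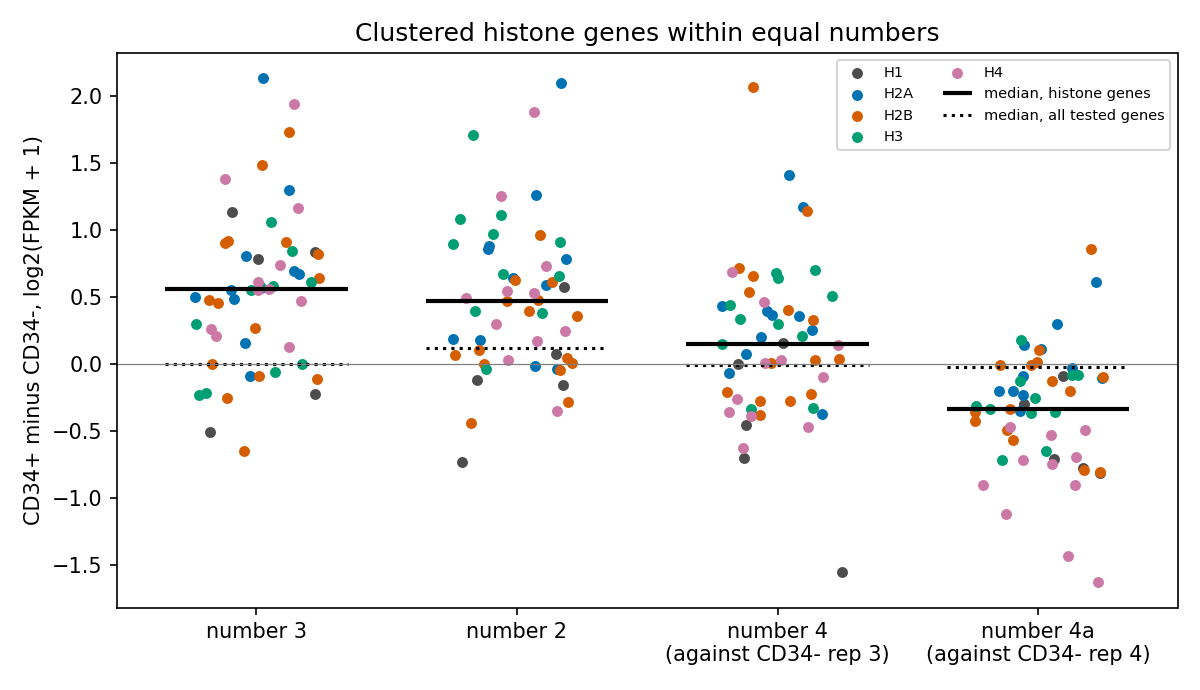
Log2(FPKM + 1) difference between the CD34-positive and the CD34-negative library of each number, 1 point a gene for the 53 tested clustered histone genes, coloured by histone type. Solid bars are their medians (0.56, 0.47, 0.15 and -0.33 from left to right) and dotted bars the medians of all tested genes; the last 2 columns share their CD34-positive library.

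By type, the positive differences of numbers 2 and 3 were spread over the core histones. H4 genes were higher in 11 of 11 in number 3 and 10 of 11 in number 2, H3 genes in 7 and 10 of 11, and H2A genes in 10 and 9 of 11. H2B genes were higher in 10 and 11 of 15, with medians of 0.48 and 0.11, the latter near the 0.13 of all tested genes in number 2. H1 genes were mixed, with 3 of 5 higher in number 3 and 2 of 5 in number 2. In number 4a all 11 H4 genes and all 5 H1 genes were lower in the CD34-positive library. The H2A gene Hist1h2af had the highest CD34 difference, at 32.8, 72.4 and 63.4 FPKM in the CD34-positive libraries of numbers 3, 2 and 4 and at 6.69, 63.3, 27.6 and 41.1 FPKM in the CD34-negative ones of numbers 3, 2, 4 and 4a. It was higher in each pair, but the groups overlapped across numbers, and neither fit called it (log2 difference 0.97, SE 0.693, limma adjusted p = 1; blocked 1.06, SE 0.341, adjusted p = 0.147). A positive difference in every pair held for 13.2% of the histone genes and 21.4% of all tested genes. The median log2 difference of the 53 genes over all libraries was 0.25, beside 0.09 for all tested genes, and 41 were above 0. In this fit without a block the median moved with single libraries: without CD34-negative replicate 1 it was -0.07, and without CD34-positive replicate 2 it was -0.06. Leaving out either takes 1 side of its number out of the fit, and the numbers themselves differed. With the number as a block the median of the 53 genes was 0.36, beside 0.04 for all tested genes. An interaction of CD34 with number 4 was called for 0 of the 9259 genes; in limma without adjustment 2 of the 53 histone genes and 17 of all genes (0.184%) were under 0.05. That fit leaves the difference between numbers 2 and 3 in its residual. With the number as a block, again 0 were called, and 9 of the 53 histone genes (17%) were under 0.05 without adjustment, all of them below 0, beside 1.24% of all tested genes. The estimate was below 0 for 47 of the 53, with a median of -0.56 beside -0.05 for all. Number 4 enters these fits with a single CD34-positive library, so the estimates of all 53 genes rest on the same few libraries. The histone medians of that library were 0.15 against CD34-negative replicate 3 and -0.33 against replicate 4.

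Number 4 was then compared with numbers 2 and 3 together. All 13221 genes above 0 in any library were tested. Of the 57 histone genes among them 8 were called higher (14%), beside 5.14% of all tested genes, and 2 lower (3.51%), beside 19.4%. Among the 8 are Hist1h2br and Hist1h2ba, which are listed at 0 in numbers 2 and 3, so they entered the test through number 4 alone and their calls carry no support. Of the 55 histone genes above 0 on both sides, 6 rose (10.9%), beside 5.13% of the 11919 such genes, and 2 fell (3.64%), beside 21.4%. The groups of these 55 did not overlap for 9 genes in the higher direction and 4 in the lower one, beside 10.7% and 28.4%. With the 2 genes at 0 included the counts were 11 and 4, beside 10.5% and 25.8% of all tested genes. The median log2 difference of the 55 was 0.14, beside -0.09 for all such genes. Across the 9259 genes that passed the filter the median was -0.30, and a median-ratio scaling of the libraries moved it to -0.02. Under that scaling 1365 genes were higher and 1285 lower, in place of 680 and 2568, and 9 histone genes were higher (beside 10.3% of all) and 1 lower (beside 9.72%). The 9 include Hist1h2br and Hist1h2ba.

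H2A genes that rose in number 4 were Hist1h2ah, Hist1h2ai and Hist1h2an. In number 4, Hist1h2ah stood at 30.8 FPKM in the CD34-positive library and at 26.5 and 33.1 FPKM in the CD34-negative ones. Elsewhere it was 1.47 and 3.59 FPKM in the CD34-positive libraries of numbers 3 and 2, and 0 and 2.05 FPKM in the CD34-negative ones. The lowest number-4 value was thus far above the highest of the rest, and the log2 difference was 3.68 (SE 0.499, limma adjusted p = 0.00285). For the genes that follow, number-4 values are given in the order CD34-negative replicates 3 and 4, then CD34-positive, and the others as CD34-negative replicates 1 and 2, then CD34-positive replicates 1 and 2. Hist1h2ai was 19.3, 26.4 and 25.8 FPKM in number 4, against 3.71, 1.46, 6.005 and 9.59 FPKM in the others, a log2 difference of 2.18 (SE 0.482, limma adjusted p = 0.0173). Hist1h2an was 15.4, 16.2 and 20.2 FPKM, against 1.33, 5.49, 2.78 and 6.36 FPKM, a log2 difference of 2.002 (SE 0.421, limma adjusted p = 0.0145). The groups did not overlap in either gene. The calls of Hist1h2ai and Hist1h2an were narrow: without CD34-positive replicate 3 their adjusted p was 0.0597 and 0.0552, and without CD34-negative replicate 4 that of Hist1h2ai was 0.0626.

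Hist1h2ag, by mean the most abundant in number 4 of the H2A genes listed once, was 85.0, 93.1 and 81.2 FPKM there. In the other 4 libraries it was 6.60, 26.1, 9.80 and 64.3 FPKM, so the number-3 libraries were lowest and CD34-positive replicate 2 came close to number 4. In each of those 4 libraries Hist1h2af was above Hist1h2ag. For Hist1h2ag the log2 difference of 2.16 (SE 0.710) missed the threshold (limma adjusted p = 0.0688). It passed without CD34-positive replicate 2 (0.0141) and among the filtered genes (0.0366). In all, 9 of the 12 H2A genes above 0 had a positive difference (median 0.42), and the exceptions were Hist1h2ac, Hist2h2ac and Hist3h2a; with median-ratio scaling and quantile normalization 9 of 12 were positive too. Hist3h2a was 35.7 and 33.6 FPKM in the number-3 libraries and 5.45 to 7.49 FPKM in the other 5, so its negative difference came from number 3 alone.

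H2B genes did not share this direction. Of 17 above 0, 7 had a positive and 10 a negative difference (median -0.27), and 2 of the 7 were Hist1h2br and Hist1h2ba. With median-ratio scaling 9 were positive and the median was 0.00, and with quantile normalization 8 were and it was -0.05. Hist1h2bj was called lower: it was 2.23, 3.71 and 3.69 FPKM in number 4 and 5.97, 13.2, 7.42 and 13.9 FPKM in the others, without overlap (log2 difference -1.35, SE 0.343, limma adjusted p = 0.0297). That call was lost under median-ratio scaling (adjusted p = 0.0932) and without any one of CD34-negative replicates 2, 3 and 4 and CD34-positive replicates 2 and 3 (0.0545 to 0.0986). Hist1h2br was 2.03, 3.36 and 2.11 FPKM in number 4 and listed at 0 in all the others. Hist1h2ba, known from testis, was 0.241, 0.901 and 0.833 FPKM in number 4, a low level, with 0 listed elsewhere; of the germ cell markers only Ddx4, at most 0.323 FPKM, was above 0.

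Among H3 genes, Hist2h3c1 and Hist1h3b rose. Hist2h3c1 was 9.59, 12.2 and 7.44 FPKM in number 4, against 0 in both number-3 libraries and 0.502 and 0.469 FPKM in those of number 2 (log2 difference 3.12, SE 0.250, limma adjusted p = 0.00032). Hist1h3b was 5.99, 9.35 and 7.09 FPKM, against 0.254, 0, 0.884 and 1.12 FPKM (log2 difference 2.48, SE 0.311, limma adjusted p = 0.00207). Neither gene's groups overlapped. In the number-3 libraries Hist1h3b, Hist1h3f and Hist1h3h were all below 1 FPKM. Their ratios of CD34-positive to CD34-negative FPKM there were 3.48, 3.49 and 3.49, while that of Hist2h3b, also low, was 0.87. These are counted as separate genes, and whether shared reads gave the like ratios was not tested. The most abundant H3 gene, Hist1h3c, went with the number in another way: it was 30.8 and 49.2 FPKM in number 2, 7.63 and 14.5 FPKM in number 3 and 8.97 to 12.4 FPKM in number 4, and was not called (limma adjusted p = 0.337).

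The H4 genes split, with 6 of 11 above 0 (9 with median-ratio scaling and 7 with quantile normalization). Hist1h4i fell, from 35.9, 42.7, 43.3 and 43.7 FPKM to 13.5, 14.6 and 10.3 FPKM in number 4, without overlap (log2 difference -1.63, SE 0.155, limma adjusted p = 0.000669). Hist1h4a rose, from 1.81, 5.41, 3.16 and 8.37 FPKM to 11.9, 20.6 and 12.2 FPKM (log2 difference 1.59, SE 0.444, limma adjusted p = 0.0411). The Hist1h4a call rested on nearly every library, since it was lost on leaving out any of them except CD34-positive replicate 2 (0.0531 to 0.133). No H1 gene was called against numbers 2 and 3 together. Hist1h1e came nearest, at 26.0, 19.9 and 18.7 FPKM in number 4 and 7.56, 6.70, 17.9 and 10.5 FPKM elsewhere, without overlap (log2 difference 1.03, SE 0.330, limma adjusted p = 0.0637). It was called higher under median-ratio scaling (0.0245), among the filtered genes (0.0394) and against number 2 alone (0.0233). Hist1h1a (-2.12) and Hist1h1b (-0.96) were called lower against number 2 alone (limma adjusted p = 0.0106 and 0.0282).

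**Figure D3:**
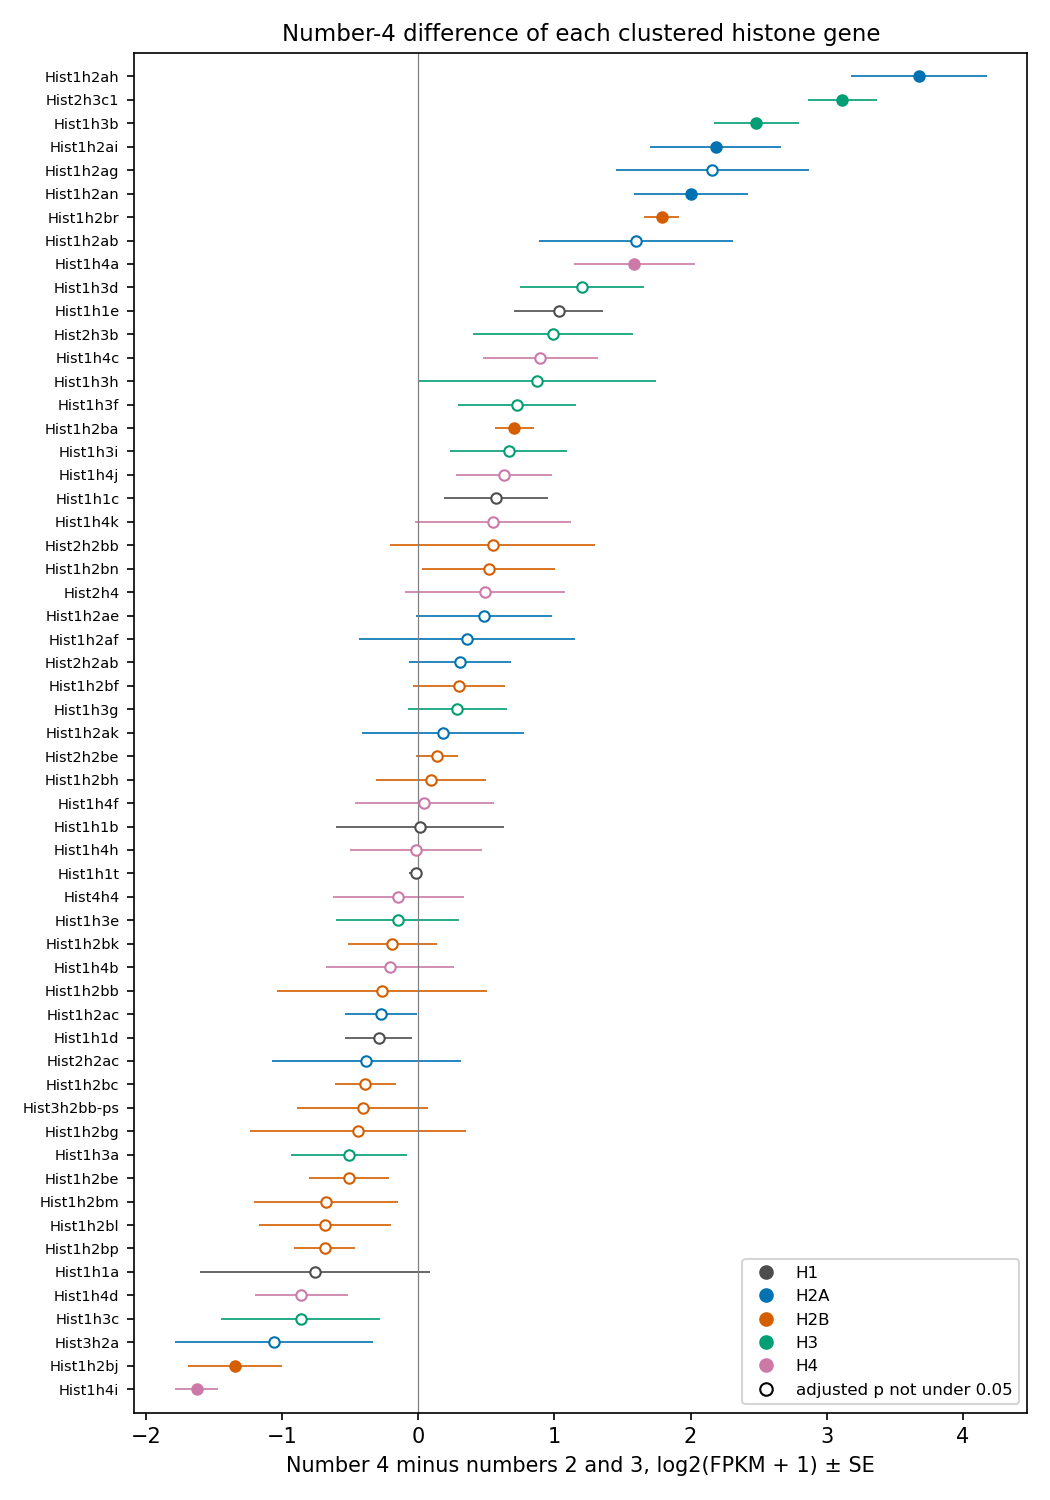
Log2(FPKM + 1) difference between number 4 and numbers 2 and 3 for the 57 clustered histone genes above 0 in any library, with its standard error, coloured by histone type. Filled points have a limma adjusted p under 0.05: 8 lie right of 0, among them Hist1h2br and Hist1h2ba, which are listed at 0 in numbers 2 and 3, and 2 lie left. Hist1h2ah is highest and Hist1h4i lowest.

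Numbers 2 and 3 were themselves unlike. The median log2 difference of number 2 from number 3 was 0.93 over the 57 genes, with 42 higher, beside -0.02 for all tested genes. The linker histone Hist1h1a showed it most among H1 genes: 30.2 and 32.0 FPKM in number 2, 2.72 and 5.43 FPKM in number 3 and 4.75 to 9.96 FPKM in number 4. Against number 3 alone, number 4 was higher for 15 of the 57 genes (beside 3.38% of all tested) and lower for 3 (beside 18.8%), with a median of 0.74. Against number 2 alone it was higher for 6 (beside 11.9%) and lower for 9 (beside 19.7%), with a median of -0.17. Both comparisons use the same number-4 libraries. Of the 15, Hist1h2br and Hist2h3c1 are listed at 0 in number 3, and of the 6 Hist1h2br is at 0 in number 2, so these calls carry no support. Hist1h2ah (4.30 and 3.05), Hist1h2an (2.61 and 1.39) and Hist1h3b (2.44 and 2.52) were called higher, and Hist1h4i (-1.57 and -1.69) lower, against number 3 and number 2 in turn. The direction of the median thus depended on which library number stood on the other side, while these genes did not change theirs.

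Of the 6 genes above 0 on both sides that rose, 5 had most of their sequence repeated in another gene. For each gene, the share of the 50-base windows of its GENCODE transcript that occur letter for letter in another gene's transcript was counted. It ran from 0 to 100% with a median of 43.8%. It was 90.7% in Hist1h2ah, 90.1% in Hist1h2ai, 85.8% in Hist1h2an, 60.4% in Hist1h3b and 100% in Hist2h3c1 and Hist1h2br. Among the 23 genes above 0 on both sides with at least 50% shared, 17 had a positive number-4 difference, the median was 0.55, and 5 rose and 1 fell. Among the 32 with less, 14 were positive, the median was -0.08, and 1 rose and 1 fell. With Hist1h2br and Hist1h2ba included there were 24 and 33 genes. Against number 3 alone the medians of the 24 and the 33 were 1.29 and 0.54, and against number 2 alone -0.01 and -0.24. All 7 H2A genes with at least 50% shared were positive (median 2.002), against 2 of 5 H2A genes with less (median -0.27). For H2B genes above 0 on both sides the counts were 3 of 7 and 2 of 8. Over the 55 genes the share and the difference had a Pearson r of 0.45 and a Spearman rho of 0.38; the genes share libraries and, by construction, sequence, so no p is given.

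**Figure D4:**
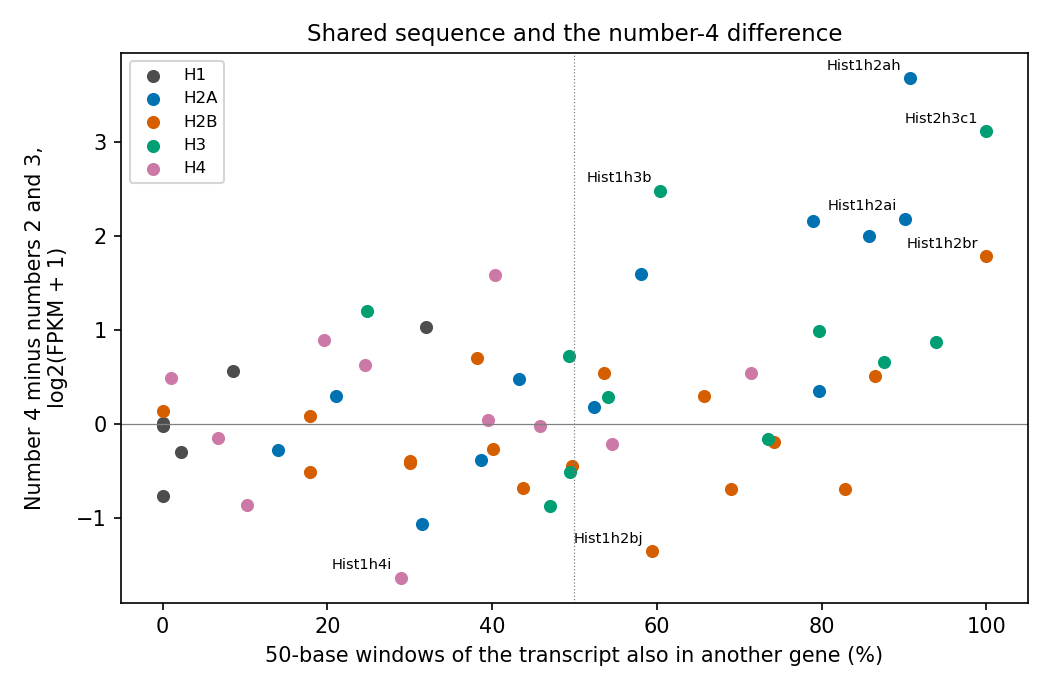
For the 57 clustered histone genes, the percent of 50-base windows of the transcript also found in another gene (x axis, dotted line at 50%) against the log2(FPKM + 1) difference between number 4 and numbers 2 and 3 (y axis), coloured by histone type. Of the 24 genes at 50% or more 18 lie above 0, and of the 33 below it 15 do; Hist1h2br (in the 24) and Hist1h2ba (in the 33) are listed at 0 in numbers 2 and 3.

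A read from a shared window fits more than 1 gene, and how the authors assigned such reads is not given in the sources used here, nor which of the named genome builds belongs to which library. The part of shared sequence in the number-4 differences was not tested. The stem-loop letters divided the same genes: of the 20 genes without its letters and above 0 on both sides 16 were positive (median 0.44), of the 15 whose transcript ends within 100 bases of it 5 were (median -0.21), and of the 20 that run further 10 were (median 0.03). Of the 6 that rose, 4 had no stem-loop letters in the annotated transcript. Hist1h2ah, Hist1h2ai and Hist1h2an are among both these 4 and the genes with over 50% of windows shared, so the 2 divisions cannot be told apart there.

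Head-to-head pairs put an H2A and an H2B gene behind 1 stretch of DNA. There were 7 such pairs by overlap of their RefSeq promoter windows, which span 300 bases on GRCm38.p6, and 53 of the 59 genes matched a window. The octamer ATTTGCAT, sought on both strands, stood in 7 of 13 H2A and 6 of 15 H2B windows, in 0 of the H1, H3 and H4 windows and in 1.74% of all 32851 windows. The CCAAT letters stood in every H1, H2A, H2B and H3 window and in 3 of 10 H4 windows, beside 37.4% of all. Windows of a pair overlap by 220 to 279 bases, so the same letters can count in both types. The octamer of Hist1h2ah and Hist1h2bk is such a case, and the H2A and H2B counts are not of separate sites. Hist1h2ah (RefSeq symbol H2ac12) had the highest number-4 difference of the tested histone genes. Its window lies at chr13:22035594-22035893 on the minus strand of GRCm38.p6, and 277 of its 300 bases are also in that of the H2B gene Hist1h2bk. It is printed 5′ to 3′ along Hist1h2ah, with the octamer, here as its reverse complement, in capitals.
Hist1h2ah: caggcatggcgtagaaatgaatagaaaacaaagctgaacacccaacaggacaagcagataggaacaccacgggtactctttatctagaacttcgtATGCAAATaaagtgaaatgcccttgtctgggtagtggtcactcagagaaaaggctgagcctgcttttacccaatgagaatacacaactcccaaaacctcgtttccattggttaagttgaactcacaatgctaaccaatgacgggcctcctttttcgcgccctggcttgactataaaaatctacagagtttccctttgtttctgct
Such a match describes the letters and says nothing on what binds there.

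In 5 of the 6 pairs with both genes above 0 the H2A gene had a positive and the H2B gene a negative difference between number 4 and the rest, and in 4 of them the H2A difference was 2.002 to 3.68. Hist1h2bk was 4.06, 7.02 and 6.998 FPKM in number 4 and 5.38, 4.52, 8.99 and 9.79 FPKM elsewhere (log2 difference -0.19, SE 0.328, limma adjusted p = 0.708), while Hist1h2ah rose. The H2A gene held 83.4% of the summed FPKM of this pair in number 4 and 19.9% in the rest. For Hist1h2ag and Hist1h2bj the H2A share was 96.4% and 72.5%, for Hist1h2ai and Hist1h2bl 84.6% and 44.5%, and for Hist1h2an and Hist1h2bp 93.5% and 60.7%. With median-ratio scaling Hist1h2bk stood at 0.09, while the H2B genes of the other 3 stayed below 0. Hist1h2ae and Hist1h2bg gave 52.3% and 31.5%, and their ratio overlapped between the groups. Hist1h2ak and Hist1h2bn gave 50.3% and 59.6%, the other way round, and both genes of this pair had a positive difference (0.18 and 0.52, neither called). The ratio of Hist1h2ag to Hist1h2bj was 38.1, 25.1 and 22.0 in number 4 and 1.11, 1.98, 1.32 and 4.62 elsewhere, without overlap. These ratios were not tested, and the H2A gene of each of the 4 pairs had 78.9 to 90.7% of its windows shared with other genes. Their H2B partners had 59.4 to 82.8% shared.

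**Figure D5:**
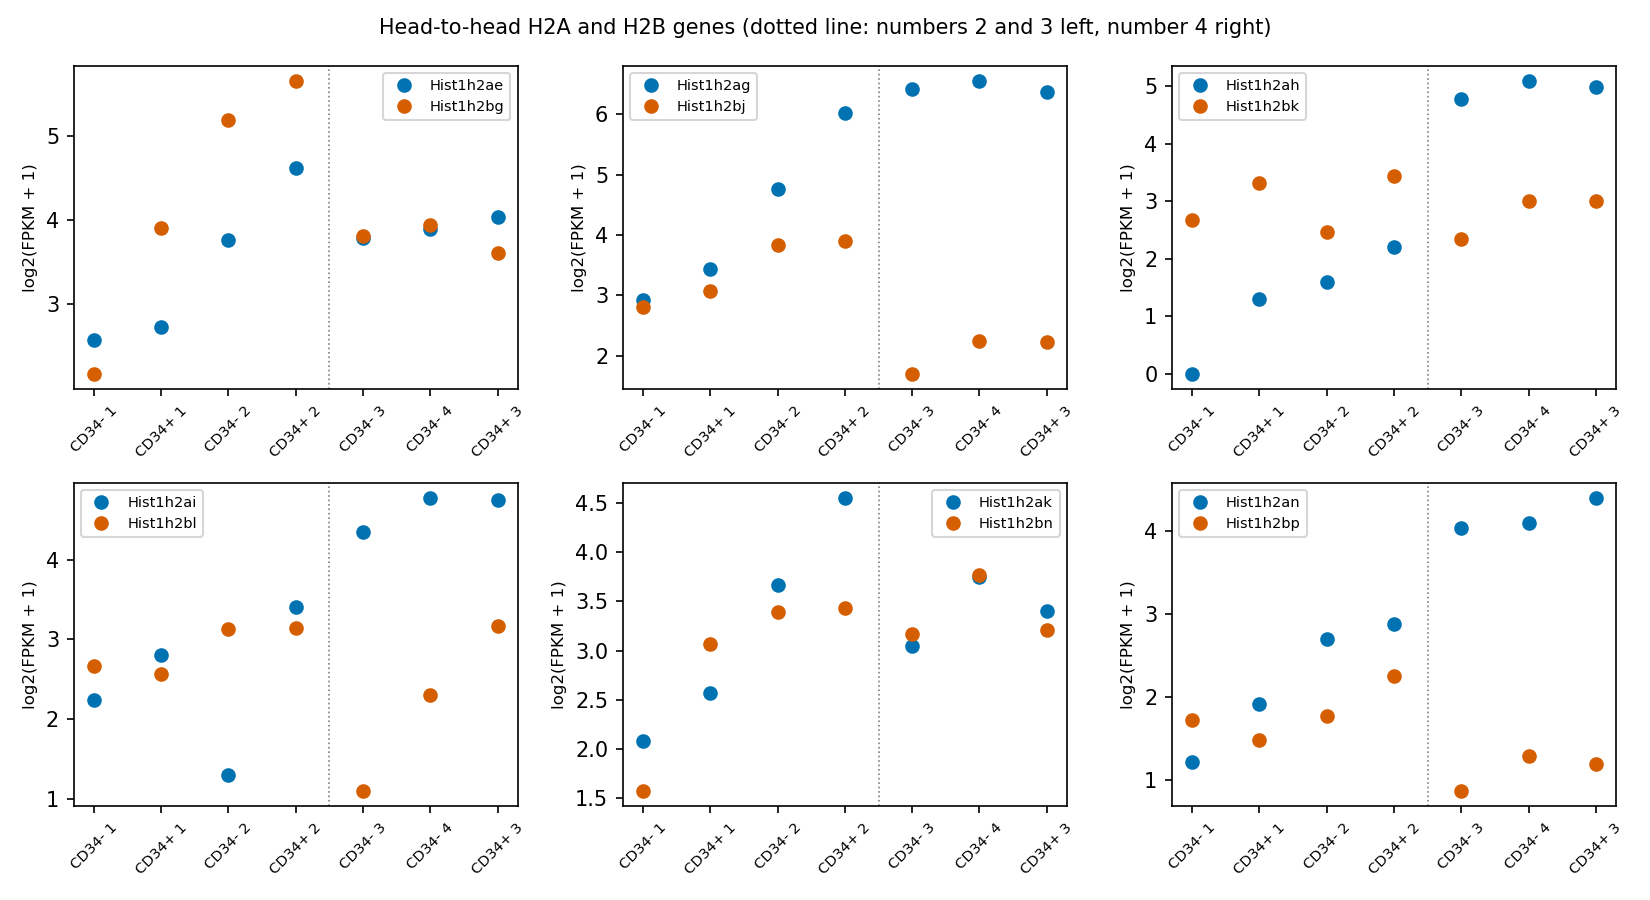
Log2(FPKM + 1) of the H2A gene (blue) and the H2B gene (orange) of 6 head-to-head pairs in each library, numbers 2 and 3 left of the dotted line and number 4 right of it. In the pairs led by Hist1h2ag, Hist1h2ah, Hist1h2ai and Hist1h2an the H2A gene is higher in number 4 than in the other libraries while its partner is not; the pair of Hist1h2aa and Hist1h2ba, at 0 or near it, is not drawn.

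Other genes of histone supply and DNA replication gave counts that moved with the scaling of the libraries. Of 25 genes of S phase and replication, 0 rose and 16 fell in number 4 as deposited, beside 5.14% and 19.4% of all tested genes. With median-ratio scaling 1 rose and 10 fell, beside 10.3% and 9.72% of all, and with quantile normalization 3 and 8. The same shares stand beside the counts of the next list. Counts over all genes with quantile normalization are given at the end. Pcna, the replication clamp, was 63.8 to 81.0 FPKM in number 4 against 374 to 509 FPKM elsewhere (log2 difference -2.68, SE 0.174, limma adjusted p = 0.000117), and was lower under both scalings (-2.35 and -1.38). Of 29 genes of histone message transcription and 3′ end formation, 1 rose and 10 fell as deposited, but 6 rose and 4 fell with median-ratio scaling, and 9 and 4 with quantile normalization. Slbp, which encodes the stem-loop binding protein, was 39.7 to 48.6 FPKM in number 4 and 54.2 to 69.7 FPKM in the rest (log2 difference -0.48, SE 0.137, limma adjusted p = 0.043). The Slbp difference was -0.16 with median-ratio scaling and 0.27 with quantile normalization, and neither was called. Lsm10, a subunit of the U7 particle that directs the cut after the stem-loop, was 12.9 to 16.3 FPKM and 43.0 to 56.1 FPKM, and was called lower under all 3 scales (log2 difference as deposited -1.67, SE 0.144, limma adjusted p = 0.000439). Ccne2, the cyclin E2 gene, was the one that rose, at 13.3 to 16.5 FPKM in number 4 against 6.28 to 8.26 FPKM. Npat, the coactivator of histone gene transcription, was not called (log2 difference 0.78, SE 0.288, limma adjusted p = 0.0964), but was with median-ratio scaling (0.0284) and with quantile normalization (0.0272).

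Of 21 histone chaperones and assembly factors, 2 rose (Atrx and Hjurp) and 9 fell (3 and 3 with median-ratio scaling, 4 and 2 with quantile normalization). Of all tested genes, 5.14% rose and 19.4% fell as deposited, and 10.3% and 9.72% did with median-ratio scaling. These shares also stand beside the replacement histone counts below. Nap1l1, a carrier of H2A and H2B, fell by 2.57 on the log2 scale (limma adjusted p = 0.0017). Replacement histones are mostly made throughout the cell cycle from polyadenylated messages. Of 11 tested replacement histones, 1 rose and 2 fell (1 and 2, then 3 and 1, under the scalings). H2afz, the H2A.Z gene, was 1565 to 1717 FPKM in numbers 2 and 3 and 99.8 to 109 FPKM in number 4 (log2 difference -3.97, SE 0.186, limma adjusted p = 2.82e-05). H2afj fell by 1.10 (limma adjusted p = 0.00924; 0.282 with quantile normalization), and H2afy2 rose at a low level, 0.272 to 0.784 FPKM in number 4. None of these lists had a gene called between CD34-positive and CD34-negative cells in limma, with or without the number as a block. At an unadjusted p under 0.05 the count was 0 in all 4 lists without the block. With it, the counts higher and lower were 2 and 2 for replacement histones, 1 and 1 for transcription and 3′ end, 2 and 1 for chaperones and 1 and 0 for S phase, beside 12.8% and 9.14% of all tested genes. The lists were chosen with earlier results of these data known, and their counts are descriptions.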

How the data were processed

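RNA-seq of 7 EML libraries was analysed from 1 table of FPKM. The submitters' processing notes name TopHat, TopHat2 and Cuffdiff and the builds mm9 and mm10, without versions or roles. FPKM as deposited by the authors was not rescaled, and neither the annotation nor the treatment of reads that fit several genes is stated in the labels. Samples were grouped by title, and columns were matched to samples by their descriptions. Of 20464 rows, 322 rows of 105 repeated symbols were left out.

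Tests used limma 3.58.1 in R 4.3.3 on log2(FPKM + 1) with a mean-variance trend, two-sided, Benjamini-Hochberg adjusted over all tested genes, threshold 0.05, and were checked on simulated data. CD34 groups were compared over genes of at least 1 FPKM in 3 libraries, number 4 over all genes above 0. Same-numbered libraries deviated together from their group means (r = 0.70 in number 3, 0.92 in number 2, 0.82 and 0.85 in number 4), and the number, taken from the descriptions, was used as a block in an alternative. Named genes were the 4 highest of each histone type, the 6 highest and lowest differences in each comparison, called genes, and genes set by role; Hist1h1e, Hist1h2bp and the other pair partners were named after their values were seen. Sequences came from GENCODE M21 and RefSeq (GRCm38.p6), which may not be the authors' annotation. The members and lists were chosen with earlier results of these data known. Alternatives were the pseudocount, the filter, the scaling, the block, merging CD34-negative replicates 3 and 4, subsets of numbers, and leaving out each library. Counts among genes above 0 on both sides, the interaction with the number as a block and sums with the repeated symbols were added after seeing the data.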

Additional observations from a re-analysis of the deposited data

Results flagged for a closer look

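A check for single far libraries covered 35 named clustered histone genes, each in 2 groups of 4 libraries (CD34-negative, and numbers 2 and 3). In 4 genes a library lay beyond Dixon's 95% limit, measured on log2(FPKM + 1) as its gap to the nearest one over the group's range. Chance gives about 1 in 20 of all checks, which is near the count found. The limit is meant for libraries of 1 kind, while both groups mix numbers. In the CD34-negative group these were Hist1h2ae (0.898, with 4.97 FPKM in replicate 1 against 12.6 to 13.9 in the others), Hist1h4d (0.875, with 9.62 FPKM in replicate 3 against 14.0 to 14.8) and Hist3h2a (0.854, with 35.7 FPKM in replicate 1 against 5.61 to 7.49). CD34-positive replicate 1, which shares number 3 with CD34-negative replicate 1, held 5.67 FPKM of Hist1h2ae and 33.6 FPKM of Hist3h2a. In numbers 2 and 3 the gene was Hist1h4i (0.881, with 35.9 FPKM in CD34-negative replicate 1 against 42.7 to 43.7). The calls between numbers were run without each of these libraries, and Hist1h4i was called lower each time.

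The 3 clustered histone symbols that the table lists more than once, and that no comparison used, were high in number 4. Hist1h2ap averaged 936 FPKM there (797 to 1050) and was at most 0.784 FPKM in the other 4 libraries. Hist1h4n averaged 17.8 FPKM in number 4 and was listed at 0 elsewhere, and Hist2h2aa2 averaged 14.1 FPKM against at most 0.349 FPKM. The first 2 symbols carry the same values on both of their rows. With 1 row of each added, the histone sum was 1389 to 1798 FPKM in number 4 and was raised by less than 2 FPKM in the others. The shared 50-base windows of these transcripts were 93.1, 85.6 and 100%; their part in the values was not tested.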

How the results depend on the processing

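Between CD34 groups, 0 histone genes were called under every alternative run. Leaving out 1 library each gave 0 to 7 genes higher and 0 to 3 lower over all genes, the upper counts without CD34-negative replicate 1, and a histone median of -0.0672 to 0.505; with number 4 only it was -0.0723. With the replicate block it was 0.36, and the block ended or made no adjusted call. Signs turned at small values, none of them called: Hist4h4 (0.259 in numbers 2 and 3 only; leaving out 1 library -0.693 to 0.0807), Hist1h2bl (-0.0479 in numbers 2 and 3 only), Hist1h2bg (-0.268 in number 4 only; -0.0192 to 1.08), Hist1h3c (-0.00184 to 1.02) and Hist1h2br (-0.931 to 0.0119).

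For number 4, median-ratio scaling gave 1365 genes higher, 1285 lower and 1 histone gene lower, and quantile normalization 1379, 1303 and 1; merging CD34-negative replicates 3 and 4 left 1 histone gene lower. Against number 2 only, 1551 genes were higher, 9 histone genes lower, and the median was -0.17. Against number 3 only, 441 genes and 15 histone genes were higher. In these, Hist3h2a (0.16 against number 2), Hist1h3c (0.0291 against number 3) and Hist1h1a (0.60 against number 3) turned sign. Leaving out 1 library each left 12956 to 13174 tested genes, 57 of them histone genes. It gave 416 to 756 genes higher (416 without CD34-positive replicate 2, 440 without CD34-negative replicate 4). Of the histone genes, 5 to 10 were higher (5 without CD34-positive replicate 3) and 1 to 2 lower. The counts of histone genes higher can include Hist1h2br and Hist1h2ba. Both are listed at 0 in numbers 2 and 3, so their calls carry no support. Hist1h2ah, Hist1h3b and Hist1h4i kept their calls under every alternative run. Hist2h3c1 kept its call too, but it is listed at 0 in number 3 and passed the filter through number 4 alone. Its calls against number 3 only and among the filtered genes therefore carry no support. Without ribosomal protein genes in the total, the histone share in numbers 2 and 3 was 0.121%. The causes were not tested. FPKM without read counts leave the counting error of low genes unknown.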
